A study of Mus musculus with 54 samples.

Results

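The genes described here are 10 that make, conjugate and move bile acids in mouse liver or control those steps: Cyp7a1, Cyp8b1, Cyp27a1, Cyp7b1, Hsd3b7, Baat, Abcb11, Slc10a1, Nr0b2 and Nr1h4. They were taken as a named list from the 24346 genes of the deposited expression table, whose unit is FPKM, mapped fragments scaled to transcript length and to library size. All 10 were in the table, and all 10 were among the 10932 genes that reached a mean of 1 FPKM in at least 1 group of livers and were tested. Total RNA of 54 livers was sequenced, 3 livers (numbered 0 to 2, as in the table) for each of 3 genotypes at each of 6 zeitgeber times (ZT0, ZT4, ZT8, ZT12, ZT16 and ZT20). KO mice had the clock gene Bmal1 (symbol Arntl) switched off in the whole body by a floxed STOP sequence. RE mice carried that STOP allele too, together with Syt10-Cre, a recombinase expressed under the Syt10 gene, which by the design gives Bmal1 back to the suprachiasmatic nucleus, the central clock of the brain. WT mice had Bmal1 in every tissue. The sources used here state neither age, sex, strain and feeding nor whether Syt10-Cre acted in any other tissue. The labels do not say that the 3 livers of a group came from separate animals, so p-values measure only the spread between these samples.

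Bile acids are made from cholesterol in hepatocytes, pumped into bile, taken up again in the ileum and returned to the liver by portal blood. Returning bile acids bind the nuclear receptor FXR (Nr1h4), which induces the repressor SHP (Nr0b2) and, in the intestine, Fgf15, and both lower transcription of the synthetic enzymes. Synthesis in rodents is known to follow the day, and clock factors such as REV-ERB and the PAR bZIP factors have been named as regulators of Cyp7a1.

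Of 8 hepatocyte markers, 7 were above 0 in every library, with summed levels of 25450 to 36080 FPKM in KO livers, 28840 to 44220 FPKM in RE livers and 30380 to 40580 FPKM in WT livers. The other, Alb (albumin), was listed at 0 in 1 of 18 KO livers, 2 of 18 RE livers and all 18 WT livers, and at 9890 to 19950 FPKM in the rest. An exact 0 in a table without counts can be a failed estimate, so no fold is given for Alb. By limma, 6 of the 8 markers, Alb included, differed in level between KO and WT livers (42.3% of all genes), 3 higher and 3 lower. Between RE and WT livers 5 did (45.9%), 4 higher and 1 lower. Between RE and KO livers 2 did (0.192%), both higher in RE. The part of hepatocyte content in the results below was not tested. None of the 10 bile acid genes was at 0 in any library, and the part of what left Alb at 0 in their results was not tested. Arntl was read at 9.76 to 14.2 FPKM in KO livers, 7.60 to 15.5 FPKM in RE livers and 0.202 to 10.3 FPKM in WT livers. The level of the whole gene does not show whether a transcript runs past the STOP, so it does not check the labels. Of 5 Kupffer cell markers, 3 were lower in KO livers than in WT livers (20.2% of all genes tested were) and all 5 were lower in RE livers than in WT livers (21.7%; limma, Benjamini-Hochberg adjusted p under 0.05). Their part in the results below was not tested. Liver 0 of WT at ZT0 stood apart with the highest summed level of 5 bile duct markers, 28.2 FPKM against 8.67 FPKM in the next library, through Krt19 and Epcam, while Cftr was at 0.0680 FPKM. It also had the highest level of the enterocyte gene Lgals4, 28.6 FPKM. The summed ileal enterocyte markers, Lgals4 among them, did not set it apart, at 195 FPKM against 188 FPKM in the next library. Liver 2 of RE at ZT16 had 22.4 FPKM of the pancreatic protease gene Cela2a against at most 1.80 FPKM elsewhere, with the other pancreatic markers (Prss2, Pnlip, Cpa1 and Amy2b) listed at 0. Liver 1 of RE at ZT16 had 14.7 FPKM of the ileal gene Fabp6 against at most 0.692 FPKM elsewhere. Some results that rest on these livers are given with and without them, and others with all livers only.

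Of the 10 genes, 0 followed a 24 h rhythm in KO livers (0.0366% of all 10932 genes did). At an unadjusted p under 0.05 there, 1 of 10 did (1301 of all genes). In RE livers 4 of 10 were called rhythmic (46.8% of all genes), and in WT livers 5 of 10 were (34.8%). A rhythm was called where the cosine and sine terms together passed limma's moderated F test at a Benjamini-Hochberg adjusted p under 0.05, and its amplitude is the height from mean to peak on the log2(FPKM + 1) scale. The rhythmic genes of RE livers were Cyp8b1, Hsd3b7, Abcb11 and Slc10a1, and those of WT livers were Cyp7a1, Hsd3b7, Baat, Abcb11 and Slc10a1. Median amplitudes over the 10 genes were 0.147 in KO livers, 0.264 in RE livers and 0.247 in WT livers, beside 0.0833, 0.160 and 0.138 over all genes tested in KO, RE and WT livers.

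**Figure D1:**
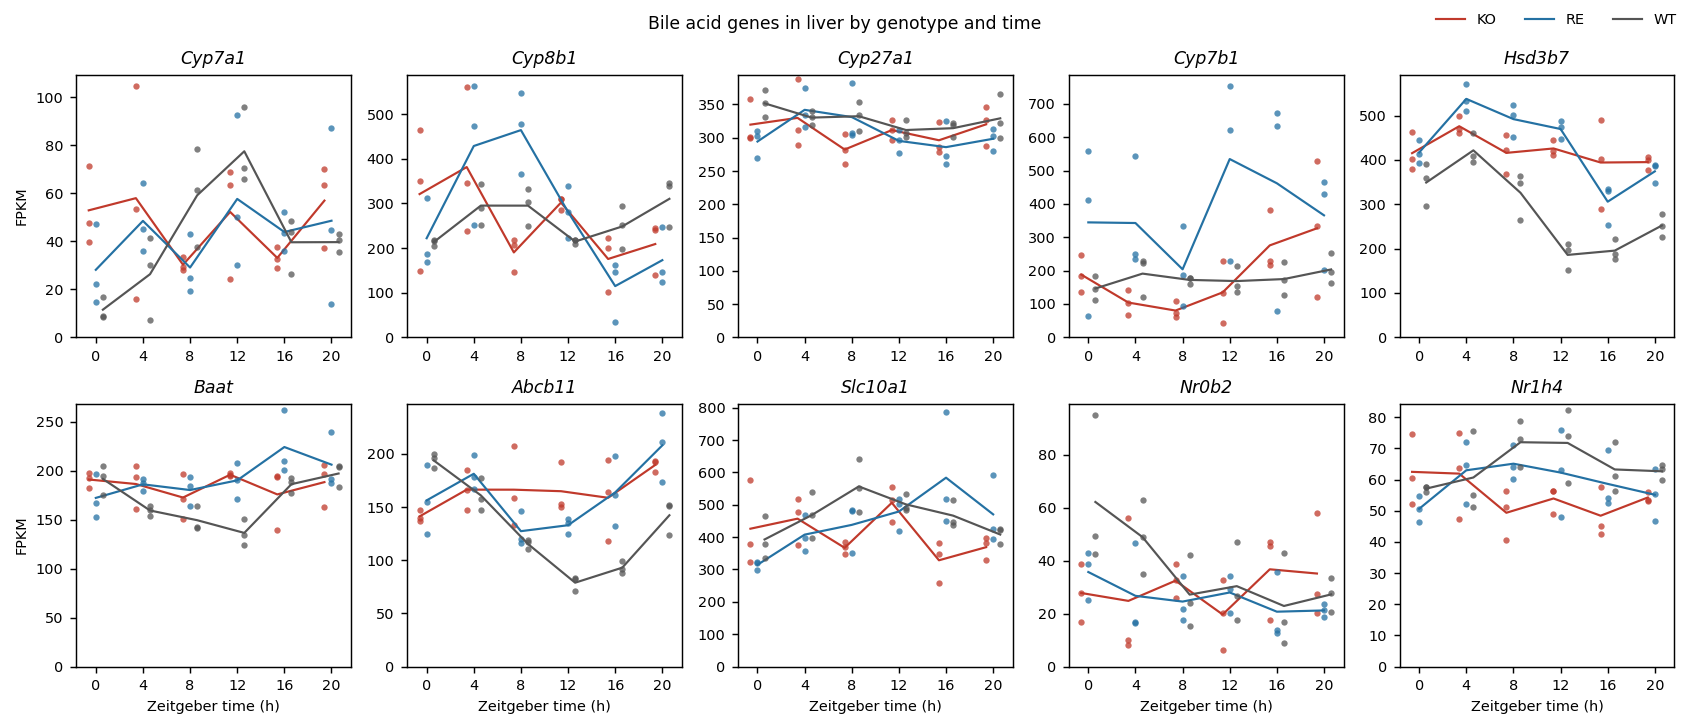
Level of each of the 10 genes in FPKM (vertical axis, from 0) against zeitgeber time in hours (horizontal axis). Each point is 1 liver and lines join the means of 3 livers, for KO (red), RE (blue) and WT (grey), with points set slightly apart sideways. The RE line of Cyp8b1 has its peak at ZT8, at 464 FPKM, and the WT lines of Hsd3b7 and Abcb11 dip at ZT12, to 186 and 78.9 FPKM.

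**Figure D2:**
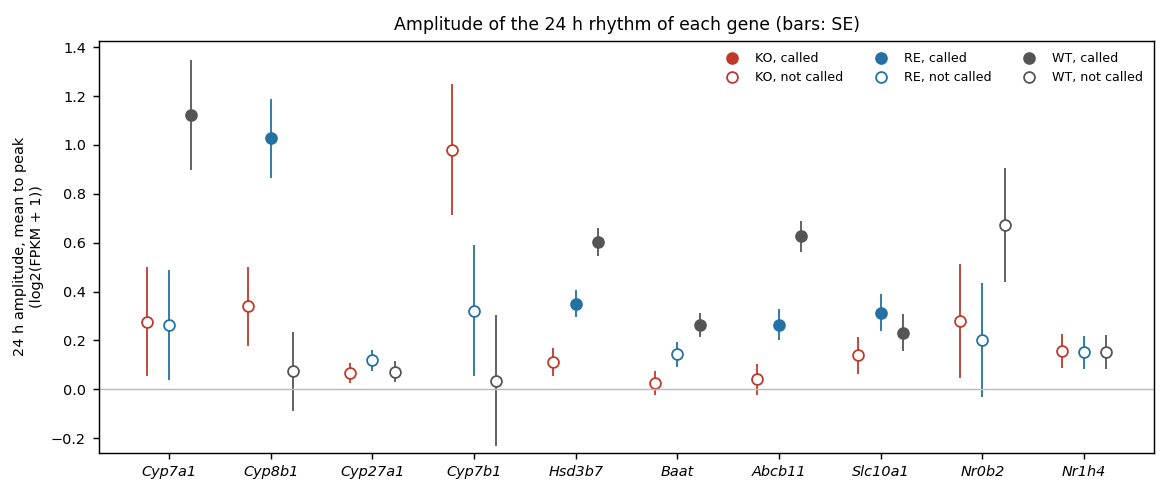
Amplitude of the 24 h rhythm (mean to peak, log2(FPKM + 1), vertical axis) of each gene in KO, RE and WT livers, with bars of 1 SE. Filled points passed an adjusted p under 0.05 and open points did not: every KO point is open, and the largest filled points are Cyp8b1 in RE (1.03) and Cyp7a1 in WT (1.12).

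Cyp7a1, the rate-limiting enzyme of the classical route of synthesis (mm10, chromosome 4, 6265612 to 6275633, minus strand), had the largest amplitude of the 10 in WT livers. At ZT0 its level was 47.7, 39.7 and 71.3 FPKM in the 3 KO livers, 14.9, 22.2 and 47.3 FPKM in the RE livers and 9.03, 8.64 and 16.9 FPKM in the WT livers. At ZT12 it was 63.6, 68.9 and 24.2 FPKM in KO livers, 30.1, 92.7 and 50.2 FPKM in RE livers and 70.6, 66.1 and 95.8 FPKM in WT livers. Every KO liver at ZT0 stood above every WT liver, RE livers overlapped both at ZT0, and at ZT12 the genotypes overlapped. At ZT8 the KO livers, at 28.0, 33.5 and 29.2 FPKM, were all below the 78.5, 37.7 and 61.3 FPKM of WT livers. That ZT8 difference did not pass limma's test after adjustment. How many of all genes separate 3 livers from 3 was not counted, here or for the genes below. The highest group mean of the day was 1.9 times the lowest in KO livers, 2.0 times in RE livers and 6.7 times in WT livers, where the means ran between 11.5 ± 4.66 FPKM at ZT0 and 77.5 ± 16.0 FPKM at ZT12 (SD, n = 3).

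The amplitude of Cyp7a1 was 0.28 ± 0.22 (SE) in KO livers (limma, adjusted p = 0.810) and 0.26 in RE livers (adjusted p = 0.582). In WT livers it was 1.12 ± 0.22 with a peak at ZT12.3 (adjusted p = 6.09e-04). The rhythm of KO livers differed from that of WT livers by 1.37 ± 0.32 in the plane of the cosine and sine terms (limma, adjusted p = 0.0106). The RE rhythm differed from the WT rhythm by 0.88 (adjusted p = 0.127), which passed once liver 2 of RE at ZT20 (14.0 FPKM) was left out (1.01, adjusted p = 0.0455). At ZT0 Cyp7a1 was 4.36-fold higher in KO than in WT livers on the FPKM + 1 scale (log2 difference 2.12, 95% interval 1.01 to 3.24, limma adjusted p = 0.00697). Without liver 0 of WT at ZT0, the one with bile duct transcripts, that difference was 1.99 (adjusted p = 0.0291). The mean over the day did not pass in either comparison, with log2 differences of 0.31 for KO minus WT (interval -0.14 to 0.77, adjusted p = 0.275) and 0.13 for RE minus WT (interval -0.32 to 0.59, adjusted p = 0.650). In tissue, fewer cells of a type and less RNA per cell cannot be told apart, and this holds for every level given here.

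Cyp8b1, the sterol hydroxylase needed to make cholic acid (chromosome 9, 121914356 to 121916305, minus strand), was called for a 24 h rhythm in RE livers only. At ZT8 it was at 207, 146 and 217 FPKM in KO livers, 366, 548 and 478 FPKM in RE livers and 249.7, 332 and 303 FPKM in WT livers. At ZT16 it was at 201, 223 and 102 FPKM in KO livers, 163, 147 and 34.6 FPKM in RE livers and 295, 198 and 252 FPKM in WT livers. At ZT8 the RE livers stood above all livers of both other genotypes, though neither difference passed limma's test at that time. At ZT16 the RE livers stood below all WT livers and overlapped KO livers. The value of 34.6 FPKM belonged to the liver with Cela2a transcripts and was the lowest of all 54 libraries for this gene.

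The RE rhythm of Cyp8b1 had an amplitude of 1.03 ± 0.16 with a peak at ZT6.1 (limma, adjusted p = 2.78e-05), and without liver 2 of RE at ZT16 it was 0.83 (adjusted p = 9.23e-05). Amplitudes were 0.34 in KO livers (adjusted p = 0.550) and 0.07 in WT livers (adjusted p = 0.932). These terms have a 24 h period, and shorter periods were not tested for any gene. The WT means of Cyp8b1 were 213 FPKM at ZT0, 295 FPKM at ZT4 and 295 FPKM at ZT8. They were 214 FPKM at ZT12, 248 FPKM at ZT16 and 310 FPKM at ZT20, so a small 24 h amplitude does not show a flat level. The RE and WT rhythms differed by 0.98 ± 0.23 (limma, adjusted p = 0.00924), and by 0.79 without that liver (adjusted p = 0.0143). The RE and KO rhythms differed by 0.77 (adjusted p = 0.0914), which passed when liver 0 of RE at ZT16 (0.86, adjusted p = 0.0478) or liver 2 of KO at ZT16 (0.85) was left out. The ZT16 difference between RE and WT, -1.37 (adjusted p = 0.0155), did not hold without liver 2 of RE (-0.66, adjusted p = 0.252) or without liver 0 of WT at that time (-1.24, adjusted p = 0.0621). Over the day the level did not differ beyond its error, with -0.10 for KO minus WT (interval -0.42 to 0.23, limma adjusted p = 0.666) and -0.13 for RE minus WT (interval -0.46 to 0.20, adjusted p = 0.535).

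The promoter windows of 4 genes are printed from the RefSeq promoter table (GRCm38.p6). Cyp8b1, Abcb11 and Hsd3b7 had called rhythm differences from WT, and Nr0b2 codes for the repressor of the synthetic enzymes. Each window runs from 250 bases before the start of transcription to 50 bases after it, and the table held 8 windows for 7 of the 10 genes. It held none for Cyp7a1, Cyp7b1 or Baat. Cyp7a1 and Baat, which also had called rhythm differences from WT, could therefore not be searched. The letters searched on both strands were CACGTG (E-box, the site of BMAL1 and CLOCK), TTANGTAA (D-box, the site of PAR bZIP factors), CAAGGNCA (LRH-1), AGGTCA (nuclear receptor half-site) and the inverted repeat of that half-site with 1 base between, bound by FXR, whose matches also count as half-sites. Of 32851 promoters of this length, 7.15% held the E-box, 2.32% the D-box, 6.71% the LRH-1 letters, 16.3% the half-site and 0.0274% the inverted repeat. Capitals mark the matches.
Cyp8b1: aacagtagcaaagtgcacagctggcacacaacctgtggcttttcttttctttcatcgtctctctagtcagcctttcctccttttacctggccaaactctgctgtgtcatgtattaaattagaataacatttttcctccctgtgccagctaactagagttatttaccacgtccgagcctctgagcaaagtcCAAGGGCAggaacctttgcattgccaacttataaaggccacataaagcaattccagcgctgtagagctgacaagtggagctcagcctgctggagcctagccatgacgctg
Nr0b2: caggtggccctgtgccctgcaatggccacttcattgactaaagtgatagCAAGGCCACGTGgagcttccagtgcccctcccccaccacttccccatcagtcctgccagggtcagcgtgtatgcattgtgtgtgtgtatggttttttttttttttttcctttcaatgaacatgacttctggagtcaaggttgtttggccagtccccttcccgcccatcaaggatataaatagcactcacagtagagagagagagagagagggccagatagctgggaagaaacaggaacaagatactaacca
Abcb11: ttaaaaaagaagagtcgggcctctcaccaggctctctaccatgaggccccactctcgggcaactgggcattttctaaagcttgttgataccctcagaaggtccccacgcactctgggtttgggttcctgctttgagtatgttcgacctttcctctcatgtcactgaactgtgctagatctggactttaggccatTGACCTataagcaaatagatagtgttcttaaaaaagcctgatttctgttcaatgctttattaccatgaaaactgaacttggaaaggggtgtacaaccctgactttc
Hsd3b7: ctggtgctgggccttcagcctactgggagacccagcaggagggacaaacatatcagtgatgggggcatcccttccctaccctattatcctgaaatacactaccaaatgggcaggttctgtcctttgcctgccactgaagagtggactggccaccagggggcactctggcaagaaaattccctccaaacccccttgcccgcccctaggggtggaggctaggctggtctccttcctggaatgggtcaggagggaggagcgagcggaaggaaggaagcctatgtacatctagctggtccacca
The Cyp8b1 window (chr9:121916256-121916555, minus strand) held 1 LRH-1 match, CAAGGGCA, that began 60 bases before the start. The Nr0b2 window (chr4:133553126-133553425, plus strand) held an LRH-1 match, CAAGGCCA, that began 201 bases before the start and overlapped an E-box that began 195 bases before it. The Abcb11 window (chr2:69342567-69342866, minus strand) held 1 half-site on the strand opposite to the printed one, where it reads TGACCT, that began 56 bases before the start. The search took exact letters only, so an inverted repeat with a changed base was not counted in any window. None of the searched letters were in the Hsd3b7 window (chr7:127800359-127800658, plus strand). A match is a string of letters and not a measured site, and a window without one says only that the letters are not in those 300 bases. Among the other windows, Nr1h4 and 1 of 2 Slc10a1 windows held a half-site, and Cyp27a1 held none of the motifs.

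The alternative route is started by Cyp27a1, a mitochondrial sterol hydroxylase (chromosome 1, 74713574 to 74737892, plus strand), and continued by the oxysterol hydroxylase Cyp7b1 (chromosome 3, 18071950 to 18243338, minus strand). Cyp27a1 varied little, at 260.0 to 389 FPKM (median 303) in KO livers, 260.0 to 382 FPKM (median 306) in RE livers and 299.8 to 372 FPKM (median 324) in WT livers. It passed no test, with log2 level differences of -0.09 for KO minus WT (limma, adjusted p = 0.0981) and -0.10 for RE minus WT (adjusted p = 0.0583). These values lay near the threshold, and the first passed without liver 0 of KO at ZT4 (adjusted p = 0.0315). The second passed without RE ZT0 liver 1, ZT4 liver 0, ZT8 liver 2, ZT12 liver 1 or ZT16 liver 2, without KO ZT4 liver 0, or without WT ZT0 liver 2, ZT8 liver 2 or ZT20 liver 1 (adjusted p down to 0.0213). With RE and WT fitted alone the second passed too (adjusted p = 0.0469). The RE rhythm of Cyp27a1 had an amplitude of 0.12 and a peak at ZT5.4 (adjusted p = 0.0595). It passed with median scaling (0.13, adjusted p = 0.0400). It also passed without RE ZT0 liver 0, ZT4 liver 2, ZT8 livers 0 or 1 or ZT16 liver 2, or without KO ZT4 liver 0 (adjusted p down to 0.0194).

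Cyp7b1 had the widest range of levels of the 10 genes in KO livers. Its level ranged over 43.0 to 528 FPKM (median 138) in KO livers, 64.7 to 752 FPKM (median 372) in RE livers and 111 to 252 FPKM (median 175) in WT livers. At ZT12 it was at 43.0, 229.6 and 132 FPKM in KO livers, 229, 752 and 622 FPKM in RE livers and 136, 155 and 214 FPKM in WT livers. Every RE liver was above every WT liver at that time and at ZT4, while RE overlapped WT at the other times. Neither the ZT12 nor the ZT4 difference between RE and WT passed limma's test. Over the day Cyp7b1 was 1.75-fold higher in RE than in WT livers (log2 difference 0.81, interval 0.26 to 1.35, limma adjusted p = 0.0126), and 0.98 on the log2 scale without liver 2 of RE at ZT16 (adjusted p = 9.88e-04). The KO minus WT difference was -0.19 (interval -0.73 to 0.35, adjusted p = 0.60). The RE minus KO difference was 1.00 (interval 0.45 to 1.54, limma adjusted p = 0.0876). It passed when any 1 of 4 livers was left out. These were RE ZT0 liver 2 (1.16, adjusted p = 0.0152), RE ZT8 liver 0 (1.07, adjusted p = 0.0364), RE ZT16 liver 2 (1.17, adjusted p = 0.0118) and KO ZT12 liver 1 (1.08, adjusted p = 0.0427). The RE minus WT difference at ZT16 passed only without liver 2 of RE at that time (1.94, adjusted p = 0.0389) among the libraries left out singly. In KO livers the gene had an amplitude of 0.98 ± 0.27 with a peak at ZT19.2 (adjusted p = 0.200), in RE livers 0.32 (0.569) and in WT livers 0.03 (0.996). The KO rhythm differed from the WT rhythm by 0.95 (adjusted p = 0.219, or 0.0434 when KO and WT were fitted alone).

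Hsd3b7, the steroid oxidoreductase that acts after the first hydroxylation in both routes (chromosome 7, 127800604 to 127803802, plus strand), was higher in both KO and RE livers than in WT livers. At ZT12 its level was 446, 421 and 411 FPKM in KO livers, 475, 446 and 487 FPKM in RE livers and 209, 196 and 152 FPKM in WT livers. At ZT4, near the WT peak, it was 459.7, 470.0 and 498 FPKM in KO livers, 532, 509 and 571 FPKM in RE livers and 409.5, 460.2 and 395 FPKM in WT livers. KO livers were above all WT livers at ZT8, ZT12, ZT16 and ZT20 and overlapped them at ZT0 and ZT4, and RE livers were above all WT livers at every time. The differences from WT at ZT8 for KO and at ZT0 and ZT4 for RE did not pass limma's test. At ZT12 it was 2.30-fold higher in KO than in WT livers (limma, adjusted p = 2.13e-08) and 2.54-fold higher in RE than in WT livers (adjusted p = 1.45e-09). Over the day the log2 level differences were 0.60 for KO minus WT (interval 0.49 to 0.72, adjusted p = 1.16e-11) and 0.63 for RE minus WT (interval 0.51 to 0.74, adjusted p = 3.70e-12). For RE minus KO it was 0.02 (interval -0.09 to 0.14, adjusted p = 0.901).

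The amplitude of Hsd3b7 was 0.11 in KO livers (limma, adjusted p = 0.585). The RE rhythm peaked at ZT5.8 with an amplitude of 0.35 ± 0.06 (adjusted p = 3.66e-05), and the WT rhythm at ZT3.0 with an amplitude of 0.60 ± 0.06 (adjusted p = 3.57e-10). The KO and WT rhythms differed by 0.51 ± 0.08 (adjusted p = 7.10e-05), and the RE and WT rhythms by 0.42 ± 0.08 (adjusted p = 0.00103). In RE livers the low point was at ZT16, at 335, 329 and 253 FPKM, where KO livers had 491, 402 and 290.0 FPKM and WT livers had 222, 188 and 177 FPKM. Without liver 2 of RE at that time, the lowest RE liver, the amplitude was 0.31 (adjusted p = 2.53e-04). The RE and KO rhythms differed by 0.24 (adjusted p = 0.128), and by 0.30 (adjusted p = 0.0325) without liver 2 of KO at ZT16.

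Baat joins bile acids to taurine (chromosome 4, 49489422 to 49506557, minus strand). At ZT12 it was at 194, 196 and 198 FPKM in KO livers, 172, 208 and 191 FPKM in RE livers and 124, 134 and 151 FPKM in WT livers. All KO and RE livers were above all WT livers at that time, by log2 differences of 0.52 for KO (limma, adjusted p = 0.00252) and 0.48 for RE (adjusted p = 0.00576). In KO livers the amplitude was 0.03 (limma, adjusted p = 0.964). In RE livers it was 0.14 with a peak at ZT16.3 (adjusted p = 0.0508). That p came under the threshold without any 1 of 16 libraries and was 0.220 without liver 2 of RE at ZT16. In WT livers the amplitude was 0.26 ± 0.05 with a peak at ZT21.1 (adjusted p = 3.08e-04). The rhythms of RE and WT differed by 0.26 ± 0.07 (adjusted p = 0.0289). The call was lost without liver 1 of RE or liver 2 of WT at ZT0, or without liver 1 of RE or liver 0 of WT at ZT12 (adjusted p up to 0.0665). Those of KO and WT differed by 0.24 (adjusted p = 0.0613, or 0.0440 when both were fitted alone). That p was under the threshold without KO ZT4 liver 2, ZT8 liver 2 or ZT16 livers 0 or 2, without RE ZT16 liver 2, or without WT ZT8 liver 0 or ZT12 liver 2 (adjusted p down to 0.0307).

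The mean level of Baat was higher in RE than in WT livers by 0.19 on the log2 scale (interval 0.09 to 0.29, limma adjusted p = 0.00201). In KO livers it was higher than in WT livers by 0.13 (interval 0.03 to 0.23, adjusted p = 0.0346), and this call was lost (adjusted p up to 0.0680) without any 1 of 13 livers. Among KO livers these were ZT4 livers 0 and 1, ZT8 liver 0, ZT16 livers 0 and 1 and ZT20 livers 1 and 2. Among WT livers they were ZT0 liver 1, ZT8 livers 1 and 2, ZT12 liver 0, ZT16 liver 1 and ZT20 liver 1.

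Abcb11 is the pump that exports bile salts into bile (chromosome 2, 69238282 to 69342616, minus strand). At ZT12 its level was 192, 149.8 and 153 FPKM in KO livers, 139, 135 and 124 FPKM in RE livers and 82.0, 83.2 and 71.4 FPKM in WT livers. At ZT0 it was 137, 139.8 and 147 FPKM in KO livers, 189.7, 155 and 125 FPKM in RE livers and 196, 199.5 and 186 FPKM in WT livers. The KO livers were thus above all WT livers at ZT12, as at ZT8, ZT16 and ZT20, and below all of them at ZT0. RE livers were above all WT livers at ZT12, ZT16 and ZT20 and overlapped them at ZT0. At ZT12 the log2 differences were 1.05 for KO minus WT (2.07-fold, limma adjusted p = 3.85e-06) and 0.75 for RE minus WT (1.68-fold, adjusted p = 6.36e-04).

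At ZT0 the KO minus WT difference of Abcb11 was -0.45 (limma, adjusted p = 0.0462). This call ended without any 1 of 27 libraries, among them all 6 KO and WT livers of that time (adjusted p up to 0.106), and with no filter on low values (adjusted p = 0.0662). The RE minus WT difference at ZT0 passed only without liver 0 of RE at that time (-0.48, adjusted p = 0.0490). The ZT8 call for KO minus WT (0.50, adjusted p = 0.0260) was lost without liver 1 of KO (0.33, adjusted p = 0.199), liver 0 of WT (0.51) or liver 2 of WT at that time (0.47, adjusted p = 0.0755). The ZT20 call for RE minus WT (0.54, adjusted p = 0.0149) was lost without liver 0 of RE (0.43, adjusted p = 0.0933) or liver 1 of WT at that time (0.44, adjusted p = 0.0857). At ZT20 the KO minus WT difference passed without liver 2 of KO at ZT16 (0.42, adjusted p = 0.0494) or with KO and WT fitted alone (adjusted p = 0.0437). At ZT16 the differences were 0.74 for KO minus WT (adjusted p = 8.07e-04) and 0.79 for RE minus WT (adjusted p = 3.09e-04).

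The amplitude of Abcb11 was 0.04 in KO livers (limma, adjusted p = 0.939) and 0.26 ± 0.06 in RE livers, with a peak at ZT21.6 (adjusted p = 0.00322). In WT livers it was 0.63 ± 0.06 with a peak at ZT0.87 (adjusted p = 2.32e-09). The rhythm differed from that of WT livers by 0.65 ± 0.09 in KO (adjusted p = 6.35e-06) and by 0.49 ± 0.09 in RE (adjusted p = 5.53e-04), while RE and KO differed by 0.26 (adjusted p = 0.139). Over the day Abcb11 was 1.30-fold higher in KO than in WT livers (log2 0.38, interval 0.25 to 0.51, adjusted p = 4.07e-06) and 1.27-fold higher in RE than in WT livers (log2 0.34, interval 0.21 to 0.47, adjusted p = 2.28e-05).

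Slc10a1 takes conjugated bile acids up from portal blood (chromosome 12, 80953183 to 80968705, minus strand). At ZT16 its level was 380.4, 347 and 258 FPKM in KO livers, 517, 448 and 786 FPKM in RE livers and 515, 447 and 437 FPKM in WT livers. At that time KO livers were below all livers of both other genotypes, and RE overlapped WT. In KO livers the amplitude was 0.14 (limma, adjusted p = 0.628). Its RE rhythm had an amplitude of 0.31 ± 0.08 and peaked at ZT14.2 (adjusted p = 0.00370), with 0.25 without liver 2 of RE at ZT16, the highest of the RE livers at 786 FPKM (adjusted p = 0.0215). The WT amplitude was 0.23 with a peak at ZT9.8 (adjusted p = 0.0450). That call was lost with no filter (adjusted p = 0.0708) and with median scaling (adjusted p = 0.0518). It was also lost without any WT liver other than ZT0 liver 2, ZT4 livers 0 and 2, ZT8 liver 2 and ZT16 liver 0 (adjusted p up to 0.124). Neither the KO minus WT (0.18, adjusted p = 0.512) nor the RE minus WT (0.30, 0.118) rhythm difference passed.

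The level of Slc10a1 over the day was lower in KO than in WT livers by a log2 difference of -0.20 (interval -0.35 to -0.05, limma adjusted p = 0.0312). That call was lost (adjusted p up to 0.0658) without KO ZT0 liver 0, ZT4 liver 2, ZT12 liver 1, ZT16 liver 2 or ZT20 liver 0, or without WT ZT0 liver 2, ZT4 liver 2, ZT8 liver 1 or ZT16 liver 0. At ZT8 it was at 348, 384 and 369 FPKM in KO livers against 552, 641 and 477 FPKM in WT livers, with no overlap (log2 -0.59, adjusted p = 0.0294). This call was lost without liver 0 or 2 of KO or liver 0 or 1 of WT at ZT8 (adjusted p up to 0.132). For RE minus WT the level difference was -0.08 (interval -0.23 to 0.08, adjusted p = 0.429). At ZT16 the RE minus KO difference was 0.80 (1.75-fold, adjusted p = 0.0557) and passed without RE ZT8 liver 0, ZT16 livers 0 or 1 or ZT20 livers 1 or 2, or without KO ZT0 livers 0 or 2 or ZT8 liver 2. The lowest of these adjusted p, 0.0272, was without liver 1 of RE at ZT16, the liver with Fabp6 transcripts. The RE minus KO difference did not pass without liver 2 of RE at ZT16, the liver with Cela2a transcripts (786 FPKM). The KO minus WT difference at ZT16 was -0.52 and passed without KO ZT0 liver 2 (adjusted p = 0.0404), KO ZT16 liver 0 (adjusted p = 0.0366) or RE ZT16 liver 2 (adjusted p = 0.0359). The RE and KO rhythms differed by 0.39 (adjusted p = 0.0645), which passed without RE ZT16 liver 1, RE ZT20 liver 2, KO ZT0 liver 0 or KO ZT4 liver 2 (adjusted p down to 0.0302).

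Nr0b2 codes for SHP, which represses Cyp7a1 and Cyp8b1 (chromosome 4, 133553376 to 133556536, plus strand). At ZT0 it was at 27.7, 38.6 and 17.0 FPKM in KO livers, 25.2, 43.0 and 38.8 FPKM in RE livers and 94.7, 49.1 and 42.4 FPKM in WT livers. KO livers were below all WT livers at ZT0, and RE overlapped both genotypes. The 94.7 FPKM belonged to the WT liver with bile duct transcripts and was the highest of all 54 libraries. The WT amplitude was 0.67 ± 0.23 with a peak at ZT2.1 and did not pass (limma, adjusted p = 0.0631). It passed when WT was fitted alone (adjusted p = 0.0389). It also passed without liver 2 of KO at ZT4, liver 1 of KO at ZT12, liver 0 of WT at ZT12 or liver 0 of WT at ZT16 (adjusted p down to 0.0200). Without liver 0 of WT at ZT0 it was 0.57 (adjusted p = 0.158).

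No level, time or rhythm difference of Nr0b2 passed. Its log2 level differences were -0.32 for KO minus WT (interval -0.79 to 0.15, limma adjusted p = 0.281) and -0.36 for RE minus WT (interval -0.84 to 0.11, adjusted p = 0.206). At ZT4 it was at 8.10, 10.1 and 56.1 FPKM in KO livers against 62.7, 34.9 and 48.9 FPKM in WT livers. Liver 2 of KO, the high one, was also the KO liver with the lowest Cyp7a1, which was at 53.5, 105 and 15.8 FPKM in KO livers 0, 1 and 2. Without that liver the ZT4 differences between KO and WT passed for both genes, at -2.27 for Nr0b2 (adjusted p = 0.00594, against -1.43 and 0.0958 with it) and at 1.78 for Cyp7a1 (adjusted p = 0.0321, against 1.05 and 0.226 with it). The Nr0b2 rhythm difference between KO and WT also passed without it (1.08, adjusted p = 0.0499, against 0.80 and 0.244 with it).

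Nr1h4 codes for FXR, the bile acid receptor (chromosome 10, 89454234 to 89533585, minus strand). It was at 40.5 to 74.8 FPKM (median 54.8) in KO livers, 46.3 to 75.8 FPKM (median 57.8) in RE livers and 51.3 to 82.2 FPKM (median 62.2) in WT livers. At ZT8 it was at 56.2, 40.5 and 51.3 FPKM in KO livers against 78.7, 64.1 and 73.1 FPKM in WT livers, with no overlap (log2 -0.54, limma adjusted p = 0.0257). The call was lost without liver 1 of KO (-0.41, adjusted p = 0.146), liver 0 of WT (-0.48, adjusted p = 0.0955) or liver 2 of WT at that time (-0.53, adjusted p = 0.0627). Over the day it was lower in KO than in WT livers (log2 -0.23, interval -0.37 to -0.09, adjusted p = 0.00555), and the RE minus WT difference was -0.13 (interval -0.27 to 0.01, adjusted p = 0.121). No rhythm of Nr1h4 passed, with amplitudes of 0.16 in KO livers, 0.15 in RE livers and 0.15 in WT livers. The KO and WT rhythms differed by 0.29 (adjusted p = 0.108), which passed without liver 2 of KO at ZT4 (0.33, adjusted p = 0.0456).

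Whether livers that differed in 1 gene differed in another was asked within groups, on each liver's deviation from the mean of its genotype and time. For Cyp7a1 and Nr0b2 the deviations of 54 livers gave Pearson's r of -0.39 and Spearman's rho of -0.39 (two-sided permutation within groups, p = 0.0231 and 0.0156), which did not pass after adjustment over the 4 pairs examined (0.0807 and 0.0623). Within KO livers r was -0.70 (permutation p = 0.0640), within RE livers -0.18 (0.358) and within WT livers -0.20 (0.429). Spearman's rho was -0.65 in KO livers (permutation p = 0.0376, adjusted 0.1504), -0.23 in RE livers (0.3407) and -0.20 in WT livers (0.4885). Over all genotypes, without the 2 livers farthest from the median of Cyp7a1, r was -0.28 (permutation p = 0.0813). For Cyp7a1 and Cyp8b1 r was 0.30 and rho 0.30 (permutation p = 0.0404 and 0.0573, adjusted 0.0807 and 0.115). Within genotypes r was 0.31 in KO livers (permutation p = 0.3519), 0.49 in RE livers (0.01335, adjusted 0.0534) and -0.31 in WT livers (0.3579). Over all genotypes, without the 2 farthest livers, r was 0.27 (permutation p = 0.0530). Cyp8b1 and Nr0b2 (r = -0.07, permutation p = 0.715) and Abcb11 and Nr0b2 (r = 0.13, permutation p = 0.428) showed no relation that passed.

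**Figure D3:**
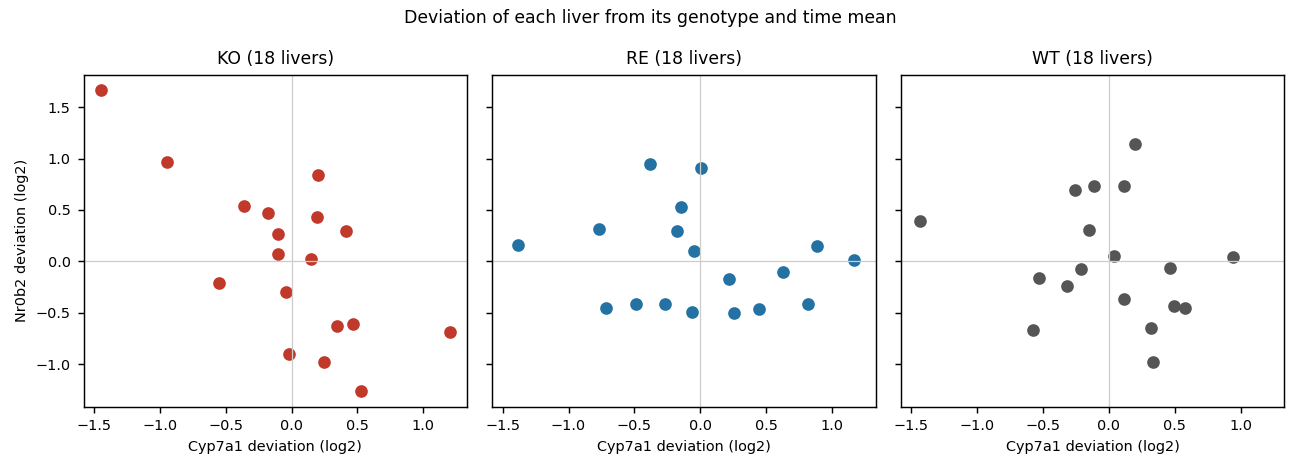
Deviation of Nr0b2 (vertical axis) against deviation of Cyp7a1 (horizontal axis) from the mean of the same genotype and time, log2(FPKM + 1), 1 point per liver, in panels for KO, RE and WT. The KO points slope downwards (r = -0.70), which did not pass (two-sided permutation p = 0.0640, adjusted 0.256). The RE and WT points show little slope (r = -0.18 and -0.20). Within KO livers, r without the livers farthest out was not computed.

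Counted over the list, rhythm differences from WT passed for 3 of 10 genes in KO livers (9.06% of all genes) and for 4 of 10 in RE livers (14.1%). Of level differences, 5 of 10 passed for KO against WT (42.3% of all genes), 3 higher (22.1% of all genes) and 2 lower (20.2%). For RE against WT 4 of 10 passed (45.9%), all of them higher (24.2%). The median level difference of the 10 genes was -0.09 for KO minus WT and 0.03 for RE minus WT, against 0.00125 and 0.0112 over all genes. Both comparisons share the WT livers. At single times KO and WT differed for 2 genes at ZT0 (9.74% of all genes), 0 at ZT4 (11.8%), 3 at ZT8 (11.7%), 3 at ZT12 (16.6%), 2 at ZT16 (13.9%) and 1 at ZT20 (10.4%). At ZT4, 1 gene was at an unadjusted p under 0.05 (2906 of all 10932 genes were). RE and WT differed for 0 genes at ZT0 (10.6%), 0 at ZT4 (9.39%), 1 at ZT8 (13.4%), 3 at ZT12 (17%), 3 at ZT16 (17%) and 2 at ZT20 (12.2%). Unadjusted, they differed for 3 genes at ZT0 (2569 of all 10932) and 2 at ZT4 (2301 of all 10932). The ZT12 calls were Hsd3b7, Baat and Abcb11, higher in KO (9.28% of all genes) and in RE livers (8.71%) than in WT livers.

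Between RE and KO livers, limma called 0 of the 10 genes for a rhythm difference (3.07% of all genes). At an unadjusted p under 0.05 there were 5 of 10 (2579 of all 10932 genes). For level limma called 0 of 10 (0.192% of all genes), with 1 of 10 unadjusted (1451 of 10932). It called 0 of 60 pairs of a gene and a time, with 11 of 60 unadjusted. Unadjusted, 826 of 10932 genes passed at ZT0, 413 at ZT4, 1852 at ZT8, 1371 at ZT12, 2629 at ZT16 and 553 at ZT20. The share of all genes called was 0.00915% at ZT0, 0% at ZT4, 0.174% at ZT8, 0.22% at ZT12, 0.43% at ZT16 and 0.00915% at ZT20. The rhythm differences with the lowest adjusted p were Slc10a1 (0.39, 0.0645), Cyp8b1 (0.77, 0.0914), Hsd3b7 (0.24, 0.128) and Abcb11 (0.26, 0.139). A p that misses the threshold does not show that RE and KO livers are alike, and the interval of the level difference reached 1.54 for Cyp7b1.

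**Figure D4:**
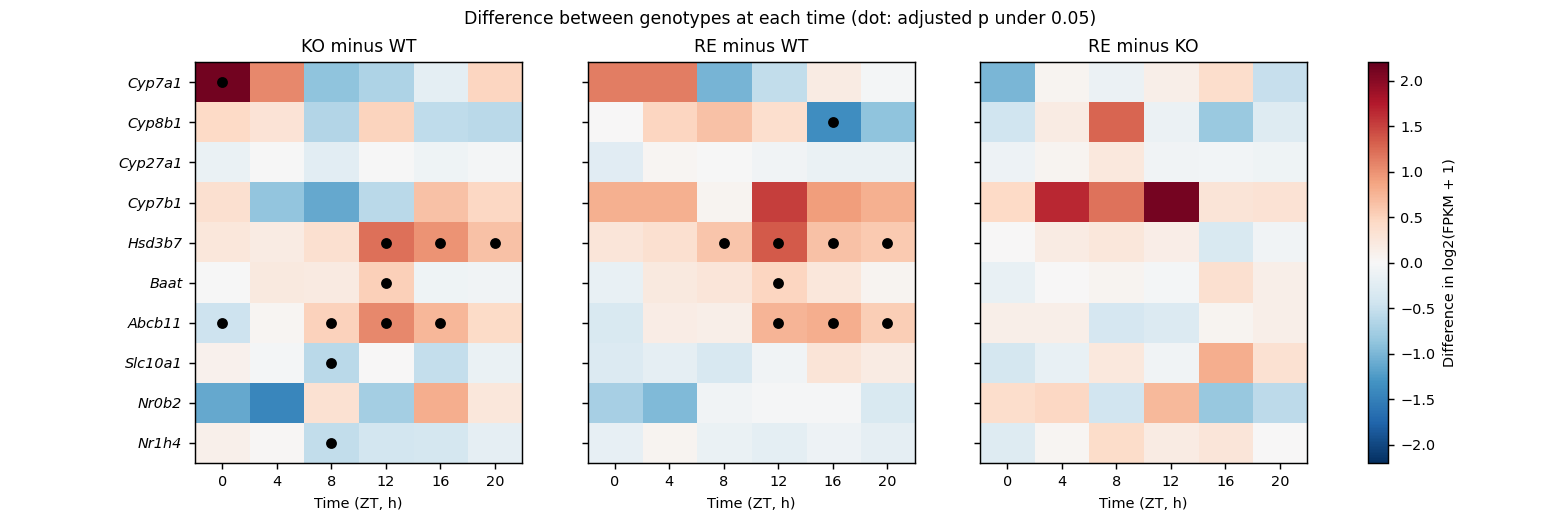
Difference in log2(FPKM + 1) between genotypes (colour, red for higher in the genotype named before the minus) for each of the 10 genes (rows) at each time (columns), in panels for KO minus WT, RE minus WT and RE minus KO. Dots mark adjusted p under 0.05: 11 of 60 in KO minus WT, 9 of 60 in RE minus WT and 0 of 60 in RE minus KO, with Hsd3b7 and Abcb11 dotted at ZT12 and ZT16 in both comparisons with WT.

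Livers of the same genotype and time differed most for Cyp7b1, Cyp8b1, Cyp7a1 and Nr0b2. For Cyp7b1 the SD within groups was 0.764 in KO livers, 1.19 in RE livers and 0.365 in WT livers on the log2 scale, and for Cyp8b1 it was 0.546 in KO, 0.653 in RE and 0.207 in WT. The median SD over all genes tested was 0.171 in KO livers, 0.196 in RE livers and 0.134 in WT livers. For Cyp7a1 the SD was 0.699 in KO livers, 0.767 in RE livers and 0.638 in WT livers, and for Nr0b2 it was 0.915 in KO, 0.556 in RE and 0.681 in WT. The difference in spread between genotypes was not tested, and the fits used 1 estimate of the spread per gene for all livers.

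**Figure D5:**
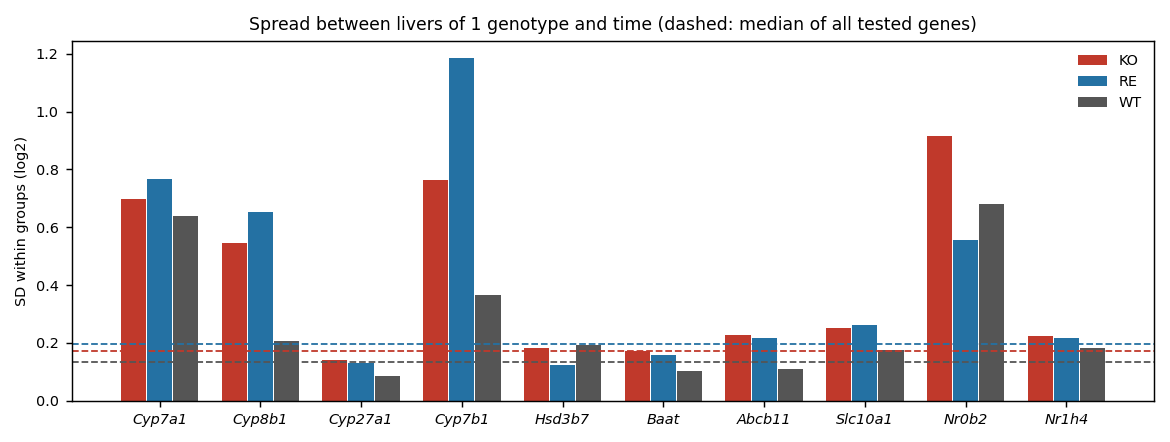
SD between livers of 1 genotype and time (log2(FPKM + 1), vertical axis from 0) of each gene in KO, RE and WT livers, with dashed lines at the median of all genes tested in the same genotype. The bars of Cyp7b1 in RE (1.19) and Nr0b2 in KO (0.915) are the tallest, and the bars of Cyp27a1 lie at or below 0.142.

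Of 18 other enzymes of synthesis and conjugation, 17 were tested, and 11 differed in level between KO and WT livers (42.3% of all genes did), 7 higher and 4 lower. Between RE and WT livers 12 differed (45.9%), 8 higher and 4 lower. Cyp2c70, which makes muricholic acids in mice, was at 517 to 1326 FPKM (median 838) in KO livers, 339 to 1452 FPKM (median 868) in RE livers and 323 to 706 FPKM (median 507) in WT livers. It was higher over the day in KO (log2 0.72, limma adjusted p = 2.79e-07) and in RE (0.77, adjusted p = 7.28e-08) than in WT livers. Hsd17b4, a peroxisomal enzyme that shortens the side chain, was lower in KO (-0.46, adjusted p = 1.72e-10) and in RE (-0.36, adjusted p = 8.05e-08) than in WT livers. Rhythms passed for 0 of 17 in KO livers (3 unadjusted), 9 of 17 in RE livers and 9 of 17 in WT livers, beside 0.0366% of all genes in KO, 46.8% in RE and 34.8% in WT livers. In KO livers 1301 of all 10932 genes were at an unadjusted p under 0.05. The RE rhythm of Slc27a2, an acyl-CoA synthetase, had an amplitude of 0.70 with a peak at ZT10.2 (adjusted p = 3.18e-06). It was 0.24 in KO livers (adjusted p = 0.416) and 0.28 in WT livers (adjusted p = 0.0489), and the rhythms of RE and KO differed by 0.69 (adjusted p = 0.0120), for no other enzyme of the list past the threshold. Reads of Cyp2c70 could be shared with other Cyp2c genes, and no source used here says how the counting divided them.

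Of 17 other transporters 14 were tested, and 6 differed in level between KO and WT livers (42.3% of all genes did), 3 higher and 3 lower. Between RE and WT livers 5 differed (45.9%), 3 higher and 2 lower. The bile acid carrier Slc10a2, known from ileum and bile duct cells, was at 0.689 to 3.05 FPKM (median 1.26) in KO livers, 0.437 to 3.64 FPKM (median 1.12) in RE livers and 3.82 to 20.9 FPKM (median 8.62) in WT livers. Neither KO nor RE livers overlapped WT livers. The log2 difference had an interval of -2.23 to -1.77 for KO minus WT (limma, adjusted p = 4.25e-18) and was -2.16 for RE minus WT (adjusted p = 4.41e-19). Of 4 tested bile duct markers 1 was higher in each of KO (22.1% of all genes) and RE (24.2%) than in WT livers. Of 5 tested ileal markers, Slc10a2 among them, 4 were lower in KO (20.2%) and 2 in RE (21.7%) than in WT livers. Their part in the Slc10a2 difference was not tested. Slco1a4, a carrier of organic anions, was higher in KO (1.45, adjusted p = 4.38e-10) and in RE (1.43, adjusted p = 5.45e-10) than in WT livers. It shares sequence with Slco1a1, which was lower than in WT livers in both (-0.69 in KO and -0.55 in RE). Rhythms passed for 0 of 14 in KO livers (3 unadjusted, 0.0366% of all genes called), 10 of 14 in RE livers (46.8%) and 7 of 14 in WT livers (34.8%). Unadjusted, the rhythm passed in KO livers for 1301 of all 10932 genes. Abcb4, the phospholipid floppase of the canalicular membrane, had an amplitude of 0.27 in KO livers (adjusted p = 0.166), 0.49 in RE livers (peak ZT9.2, adjusted p = 5.39e-06) and 0.20 in WT livers (adjusted p = 0.0628).

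Of 19 other regulators 17 were tested, and 9 differed in level between KO and WT livers (42.3% of all genes did), 1 higher (22.1%) and 8 lower (20.2%). Between RE and WT livers 8 differed (45.9%), 1 higher (24.2%) and 7 lower (21.7%). Ppara, the fatty acid receptor, was at 13.3 to 24.5 FPKM in KO livers, 12.3 to 42.3 FPKM in RE livers and 18.4 to 44.5 FPKM in WT livers. Its log2 differences were -0.85 for KO minus WT (limma, adjusted p = 6.53e-10) and -0.77 for RE minus WT (adjusted p = 5.95e-09). Klb, the co-receptor for FGF15 signalling, was lower in KO (log2 -0.50, adjusted p = 6.24e-06) and in RE (-0.53, adjusted p = 2.13e-06) than in WT livers. Its partner Fgfr4 did not pass (0.08 for KO minus WT and -0.08 for RE minus WT). Fgf15 was listed at 0 in all 54 libraries. Nr5a2, which codes for LRH-1, the activator of Cyp7a1 and Cyp8b1, did not pass in level (-0.06 for KO minus WT and -0.13 for RE minus WT) and had a rhythm in RE livers (0.31, peak ZT22.0, adjusted p = 0.0107). Rhythms passed for 0 of 17 in KO livers (2 unadjusted, 0.0366% of all genes called), 11 of 17 in RE livers (46.8%) and 6 of 17 in WT livers (34.8%). Unadjusted, the rhythm passed in KO livers for 1301 of all 10932 genes.

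Of 10 clock factors named as regulators of Cyp7a1, 0 were rhythmic in KO livers by limma (0 unadjusted, 0.0366% of all genes called), 2 in RE livers (46.8%) and all 10 in WT livers (34.8%). Unadjusted, the rhythm passed in KO livers for 1301 of all 10932 genes. Nr1d1, which codes for the repressor REV-ERB alpha and is induced by BMAL1, was at 0.455 to 1.49 FPKM in KO livers, 0.391 to 1.72 FPKM in RE livers and 0.755 to 51.8 FPKM in WT livers. Its WT rhythm had an amplitude of 2.61 (limma, adjusted p = 9.38e-23) and a peak at ZT6.2. Dbp, the D-box factor, was at 0.925 to 2.97 FPKM in KO livers, 0.849 to 2.42 FPKM in RE livers and 0.508 to 79.7 FPKM in WT livers, with a WT peak at ZT9.1. Rhythms differed from WT in 10 of 10 factors in KO livers (9.06% of all genes) and 9 of 10 in RE livers (14.1%). Between RE and KO they differed in 0 of 10 (3.07% of all genes), with 2 unadjusted (2579 of all 10932 genes).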

How the data were processed

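The authors sequenced total RNA of 54 livers and deposited 1 table of gene expression as FPKM. TopHat and mm10 are named per the submitters' processing notes, and no source used here names the tool or annotation behind the FPKM values. Whole reads and depth are unknown, so no counting error can be given. FPKM summed to 572995 to 751399 per library, with 14654 to 15810 genes above 0.

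Values were analysed as log2(FPKM + 1), which understates changes of low genes. A gene was tested if any group averaged 1 FPKM or more (10932 of 24346). One limma model (limma 3.58.1, R 4.3.3) with 18 group means, 36 residual degrees of freedom and a trended variance gave levels (the mean of 6 times), differences at each time and 24 h cosine and sine terms. Intervals are 95%. A rhythm difference is the length of the difference of the cosine and sine terms. P-values were adjusted by Benjamini-Hochberg over all genes tested, and over genes and times within a pair of genotypes for single times, with a threshold of 0.05. The fits were tested on simulated data with 1 spread per gene shared by all genotypes. Such data could not check the fits where spreads differ between genotypes. Correlations used 100000 permutations within groups.

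The 10 genes and all lists were chosen with earlier results of these data known. Genes named beyond the 10 were called genes among the 4 of lowest adjusted p of their list in a comparison; Fgfr4, Nr5a2 and Fgf15 were added by role after their values were seen. Library columns carry the genotype, the time and a number from 0 to 2, which could not be tied to the replicate numbers of the labels, so no pairing was used. Alternatives were median scaling, a pseudocount of 0.1, all genes tested, only genes of 5 FPKM or more tested, robust variances, each pair of genotypes fitted alone and each library left out in turn; leaving out both the RE ZT16 liver with Cela2a transcripts and the WT ZT0 liver with bile duct transcripts was added after seeing the data, while the RE ZT16 liver with Fabp6 transcripts was left out singly only. Gene coordinates are mm10, from GENCODE, and promoters are from RefSeq. Some genes of these lists are not reported here by name.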

Additional observations from a re-analysis of the deposited data

Results flagged for a closer look

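Each of the following is a rhythm that differed between a mutant genotype and WT by a test of the difference itself (limma, Benjamini-Hochberg adjusted p under 0.05), on the log2(FPKM + 1) scale. Between KO and WT livers the differences were 1.37 for Cyp7a1, 0.654 for Abcb11 and 0.512 for Hsd3b7. Between RE and WT livers they were 0.975 for Cyp8b1, 0.494 for Abcb11, 0.420 for Hsd3b7 and 0.257 for Baat. Both sets share the WT livers. Single livers were not tested as outlying within their groups of 3.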

How the results depend on the processing

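No direction of a called result was turned round by any alternative. Under settings other than leaving out 1 library, counts moved by over 1.5 times in 3 cases. Rhythm differences of KO from WT numbered 5 when these genotypes were fitted alone (Baat and Cyp7b1 added to 3). With the filter at 5 FPKM, 1 difference at a single time between RE and KO passed (Slc10a1 at ZT16, against 0). Without both liver 2 of RE at ZT16 and liver 0 of WT at ZT0, 1 level difference between RE and KO passed (Cyp7b1, against 0). Leaving out 1 library moved a count by over 1.5 times, or from 0, in 21 of 648 cases. Between RE and KO, 6 libraries did so for rhythm differences, 4 for level differences and 8 for differences at single times. Without 1 library, rhythms numbered 0 in KO, 4 to 6 in RE and 4 to 6 in WT livers; rhythm differences 3 to 6 for KO against WT (6 without liver 2 of KO at ZT4), 3 to 5 for RE against WT and 0 to 2 for RE against KO (2 without liver 2 of KO at ZT16); level differences 3 to 5 for KO against WT (3 without liver 1 of WT at ZT8), 4 to 5 for RE against WT and 0 to 1 for RE against KO; differences at single times 7 to 13 for KO against WT (7 without liver 0 of WT at ZT8), 8 to 10 for RE against WT and 0 to 1 for RE against KO. Of 1890 values of single genes under the other settings, 1870 stayed on their side of the threshold, 6 lost it and 14 passed it. Of 14580 such values with 1 library left out, 14427 stayed on their side, 80 lost it and 73 passed it. The cause of these changes was not tested. Depth is unknown, so what depth limits cannot be stated. No paired analysis was possible because the numbers of the table's columns could not be tied to the replicate numbers of the labels.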

Other observations

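The ratio of Cyp8b1, which is needed to make cholic acid, to Cyp7a1 was computed per liver from FPKM, as a description with no test. At ZT0 its median was 6.51 in KO livers, 7.62 in RE livers and 24.0 in WT livers, and at ZT8 it was 7.41 in KO livers, 14.8 in RE livers and 4.94 in WT livers. At ZT16 it was 5.90 in KO livers, 2.82 in RE livers and 6.70 in WT livers. The highest median thus fell at ZT4 in KO, ZT8 in RE and ZT0 in WT livers.

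Patterns over the 18 group means were compared with those of 6104 other genes that averaged 5 FPKM or more. Gene models, clones and small RNAs, by the form of their symbols, had been left out of these. Those most like Cyp7a1 were Mpzl2 (Pearson r = 0.775), Fam20b (0.761), Ctso (0.745), Actr6 (0.741) and Aqp11 (0.731), while Nr0b2 had r = -0.645. For Cyp8b1 they included Pcbd2 (0.873), Atg7 (0.862), Slc25a42 (0.854) and Pex14 (0.851), and Cyp27a1 had 0.666 and Cyp7a1 0.0476. These means share libraries and are given as descriptions.

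Liver 2 of KO at ZT16 held the lowest KO value of 5 of the 10 genes (Cyp8b1, Hsd3b7, Baat, Abcb11 and Slc10a1) and the most genes above 0 of all 54 libraries, 15810. Liver 2 of RE at ZT16 held the highest RE value of Baat and Slc10a1 and the lowest of Cyp8b1 and Hsd3b7. For neither liver was the share of all genes at such an extreme counted, so these are features of the libraries and not results about the bile acid genes.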
